A study of Homo sapiens with 6 samples.

Results

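Amacrine cells are interneurons of the inner retina. Most of the GABAergic ones have wide dendritic fields and release GABA, which is made from glutamate by the enzymes encoded by GAD1 and GAD2, while TFAP2A and TFAP2B encode AP-2 transcription factors of the amacrine and horizontal cell lineages. Horizontal cells, the other GABA-producing interneurons of the outer retina, depend on ONECUT factors, LHX1 and PROX1 and can share the AP-2 factors and GAD with amacrine cells. GABAergic amacrine cells were therefore chosen by their own UMI counts, as cells with at least 2 UMIs of TFAP2A plus TFAP2B, at least 1 UMI of GAD1 plus GAD2, no UMI of ONECUT1, ONECUT2 or LHX1, and at most 1 UMI each of NRL and PDE6H, the rod and cone genes. A UMI is 1 counted transcript molecule. These cells, called members here, numbered 271 of 43757 cells that had at least 1000 UMIs, 500 detected genes and at most 20% mitochondrial UMIs. The levels of the genes in this rule are given as a description only.

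The cells came from retinal organoids grown from WA09 CRX-tdTomato, an established line of human embryonic stem cells with a reporter in the photoreceptor lineage. Organoids aged 113 to 126 days were triturated, and all 6 samples were collected 3 days afterwards. Each of 3 experiments, called Sets, gave 1 sample of fragments left in culture and 1 injected under the retina of normal dogs, both from 1 batch of organoids. All cells derive from 1 line, so the Sets measure the spread between experiments on that line and not between donors.

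Most members carried genes of amacrine neurons that the rule did not use, with an exception in Set 1, and some of these genes are shared with horizontal cells. PAX6, an eye-field factor that amacrine cells retain, was detected in 255 of 271 members (94.1%, exact 95% interval 90.6% to 96.6%) and in 40.7% of photoreceptor-like cells, which are cells with at least 2 UMIs of NRL or PDE6H and serve as the reference for free RNA. By sample the members' median depth was 2424 to 8386 UMIs and that of the reference 3740 to 7746 UMIs. MEIS2, a homeobox factor of inhibitory neurons, was detected in 214 members (79.0%), but also in 66.1% of the reference cells, and in cultured sample 2 the reference share (86.5%) was above that of members (80.6%). RALYL was detected in 192 members (70.8%) against 12.1% of the reference cells, and GRIA4, an AMPA glutamate receptor subunit, in 248 members (91.5%) against 16.7%. In cultured sample 2, PAX6 and GRIA4 were nearly as common in horizontal cells (86.9% and 91.7%) as in members (96.3% and 95.8%). MEIS2 and RALYL were found there in 29.1% and 22.2% of horizontal cells, against 80.6% and 74.3% of members. The summed level of 9 rod markers was between 0 and 81.9 CPM in members of the 6 samples, where CPM is UMI counts summed over the cells of a class and scaled to a common library total, and that of 9 cone markers between 0 and 57.3 CPM. In all other kept cells the rod sums were between 593 and 1541 CPM. The rule itself caps NRL and PDE6H, which are in these 2 lists.

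Of the 2 members of transplanted sample 1, 1 went against the label and the other was shallow. The first had 1408 UMIs, with 11 of STMN2, 2 of ELAVL3, 2 of PAX6 and 1 of GRIA4, and none of VIM. These are genes of amacrine neurons that horizontal cells can share. It had no UMI of MEIS2, RALYL or DCX, so at this depth its values do not settle the label. The second had 15363 UMIs, with 102 UMIs of VIM, 34 of HES1 and 41 of SFRP2, genes of retinal progenitors and glia. It had none of STMN2, DCX or GRIA4, other genes of neurons, but 9 UMIs of PAX6 and 2 of MEIS2. All 16 genes of the GABA receptor list were at 0 in this sample. Cultured sample 1 stood apart too: 8 Müller glia markers summed to 4394 CPM and 15 cell cycle genes to 999 CPM in its members, against 196 to 1238 CPM and 49.1 to 108 CPM in cultured samples 2 and 3. The other kept cells of cultured sample 1 were at 4593 and 1447 CPM for the same lists, and the part of such RNA in the members' values was not tested. The 3 members of transplanted sample 2 had 6007, 7962 and 2136 UMIs, and the first 2 of them carried 7 UMIs of PAX6 each. The third had 1 UMI of PAX6, none of GRIA4 and 15.3% mitochondrial UMIs, against 2.65% and 1.85% in the others. Calls of the class comparisons and of the fit over every Set are given with and without Set 1. Summed levels and gene levels below are not given without it. In transplanted sample 1 the second cell holds 15363 of the 16771 member UMIs, so the levels of that sample describe mostly that VIM-rich cell.

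Depth differed between samples and touched every count below. Members had a median of 3624, 4202 and 2424 UMIs in cultured samples 1, 2 and 3 and of 8386, 6007 and 6503 UMIs in transplanted samples 1, 2 and 3. Summed over members this gave 73047, 895743 and 61069 UMIs in the cultured and 16771, 16105 and 227025 UMIs in the transplanted samples. No member barcode occurred in more than 1 library. Set 1 also went through another version of the counting software than Sets 2 and 3, and genes named only by a genomic clone took a median of 0.669% and 0.675% of UMIs per cell in Set 1 but 2.20% to 4.36% in Sets 2 and 3.

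The rule reads few molecules, so the edge of the class is soft. Of the 271 members, 108 had exactly 2 UMIs of TFAP2A plus TFAP2B and 149 had exactly 1 UMI of GAD1 plus GAD2. Just outside stood 208 cells with 1 AP-2 UMI, 54 cells with a single ONECUT or LHX1 UMI, 62 cells with at least 2 UMIs of NRL or PDE6H, and 382 cells that met every other condition and had no GAD UMI. These 382 cells are called GAD-negative amacrine cells below. At least 1 GAD UMI also occurred in 7.31%, 20.6% and 8.74% of the reference photoreceptor-like cells of cultured samples 1, 2 and 3 and in 5.19%, 9.17% and 8.09% of those of the transplanted samples. At least 2 AP-2 UMIs and at least 1 GAD UMI occurred together in 0.109% to 3.33% of the reference cells.

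GAD2 supplied most of the GAD transcripts and TFAP2A most of the AP-2 transcripts. Members held 392 UMIs of GAD2 (GRCh38 chr10:26216307-26304558) and 129 of GAD1 (chr2:170813213-170861151), so GAD2 made up 75.2% (exact 95% interval 71.3% to 78.9%, counting error only). By sample the GAD2 share was 83.3% in cultured sample 1, 80.6% in cultured 2 and 44.8% in cultured 3, against 50% in transplanted sample 1 (1 of 2 UMIs), 71.4% in transplanted 2 and 59.0% in transplanted 3. The groups overlapped. Cultured sample 2 alone gave 307 of the 392 GAD2 UMIs, and its interval of 76.2% to 84.4% did not overlap that of cultured sample 3, 26.4% to 64.3%. By cell, 177 members held GAD2 only, 51 held GAD1 only and 43 held both. TFAP2A (chr6:10393186-10419659) gave 73.3% of AP-2 UMIs, and TFAP2B (chr6:50818723-50847613) the rest. The share of TFAP2A was between 71.4% and 84.1% over cultured samples and between 40% and 100% over transplanted ones, so these groups overlapped too.

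Members were a smaller share of cells in the transplanted sample of every Set, and the test over samples had too few samples to pass 0.05. They were 17 of 17899 cultured and 2 of 7809 transplanted cells in Set 1, or 0.0950% and 0.0256%. In Set 2 they were 191 of 10652 (1.79%) and 3 of 694 (0.432%), and in Set 3 24 of 1885 (1.27%) and 34 of 4818 (0.706%). The means were 1.05% ± 0.870 and 0.388% ± 0.342 (SD, n = 3 each), and the ranges overlapped, with p = 0.3 in the exact two-sided permutation test, which takes no account of the Sets and cannot go below 0.1. Counting intervals of the 2 samples overlapped in Sets 1 and 3 and not in Set 2. Set 1 had the lowest share in both groups. After every kept cell was thinned to 1000 UMIs, only 1, 18 and 4 members remained in the cultured and 0, 1 and 4 in the transplanted samples, and the difference of means was -0.0532 percentage points (exact permutation p = 0.5). With at least 2 GAD UMIs required, the difference was -0.0935 percentage points (exact permutation p = 0.8), and Set 3 turned round, at 0.159% cultured and 0.353% transplanted. Fewer cells of the class, fewer of them released by dissociation and fewer passing the UMI rule cannot be told apart.

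**Figure D1:**
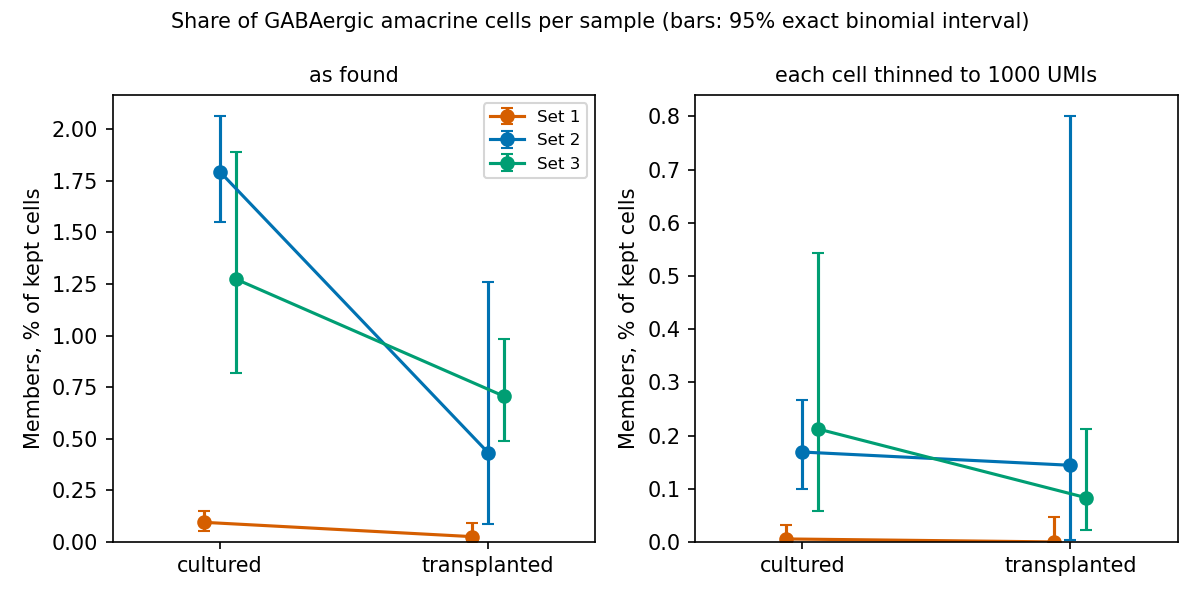
Members as a percentage of kept cells in each sample, as found (left) and after thinning each cell to 1000 UMIs (right), where points are samples, lines join the samples of a Set and bars are exact 95% binomial intervals. As found, the transplanted point lies below the cultured point in all 3 Sets, and after thinning the intervals overlap within each Set.

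Beyond GAD, the gene that loads GABA into vesicles was detected in few members. SLC32A1, the vesicular inhibitory amino acid transporter, had a UMI in 27 of 271 members (9.96%, exact interval 6.67% to 14.2%) against 0.798% of reference photoreceptor-like cells. In cultured sample 2, the largest group, it was found in 11.0% of members, 8.38% of GAD-negative amacrine cells and 13.6% of horizontal cells, at median depths of 4202, 3338 and 4727 UMIs. SLC6A9, the glycine transporter of glycinergic amacrine cells, had a UMI in 14 members (5.17%), below the 14.3% of the reference cells. Whether these UMIs are background was not tested. No member had a UMI of SLC6A5, a glycine transporter of glycinergic neurons, which allows up to 1.35% of cells with a UMI and sets no limit on cells that express the gene below detection.

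Markers of named GABAergic subtypes were rare. No member had a UMI of VIP, SST or PENK, 1 each had NPY and CCK, and 8 (2.95%) had NOS1, against 0.726% of the reference cells. TH, the dopamine synthesis enzyme, was found in 6 members (2.21% against 0.345%). CHAT, the acetylcholine synthesis enzyme of starburst amacrine cells (chr10:49609095-49665104), was found in 6 members (2.21%) against 0.0927% of the reference cells. Of those 6 cells, 5 also had UMIs of ISL1, SOX2, MEGF10 and SLC18A3, genes that starburst cells use. These 5 came from cultured sample 2 (1 cell), cultured sample 3 (1 cell) and transplanted sample 3 (3 cells). SLC5A7 and FEZF1, also checked as starburst markers, had no UMI in these cells or in any of the 271 members. That sets no limit on expression below detection. Over all members, ISL1 was found in 7, SLC18A3 in 6, MEGF10 in 19 (7.01%) and SOX2 in 29 (10.7%). The last 2 shares lie below those of the reference cells (10.5% and 36.9%), and whether these UMIs are background was not tested. Of the 5 cells above, 4 had 6 to 13 UMIs of MEGF10 each. This small group was picked out after its values were seen and carries no test.

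More common among members were genes shared by wider sets of amacrine cells. CALB2, the calcium buffer calretinin, had a UMI in 72 members (26.6%), against 3.25% of the reference cells. GABRA2, a GABA-A receptor subunit (chr4:46248427-46475230), was found in 83 members (30.6% against 2.55% of the reference), and its chromosomal neighbour GABRG1 (chr4:46035769-46124081) in 54 (19.9% against 0.402%), with 27 members having both. LHX9, a LIM homeobox factor, was found in 82 members (30.3% against 9.37%), and in cultured sample 2 in 27.2% of members and 33.0% of GAD-negative cells. RELN, the secreted lamination protein reelin, was found in 160 members (59.0% against 8.82%). LDB2, a cofactor of LIM homeobox proteins, was found in 112 members (41.3%) against 5.01% of the reference.

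The comparison with GAD-negative amacrine cells asked what goes with GAD inside the amacrine class. It used the 4 samples with at least 5 cells of each kind, cultured 1, 2 and 3 and transplanted 3, with the sample as a block. Of 4511 genes tested outside the rule, 56 passed an adjusted p of 0.05 in edgeR's quasi-likelihood test, 32 higher (0.709%) and 24 lower (0.532%) in members, which is 1.24% of genes tested, and 382 had an unadjusted p under 0.05. With RLE factors in place of TMM factors the split was 44 higher and 19 lower. Higher genes included SNTG1, GABRA2, CALB2 and NLGN1, and lower ones SQSTM1, S100A10, MDM2 and B2M. Members had more UMIs per cell, with median UMIs of 3624, 4202, 2424 and 6503 against 2685, 3338, 1881 and 5955 in GAD-negative cells. With all cells thinned to 1000 UMIs, 720 genes could be tested and 10 passed. Without the block no gene passed edgeR's test and 7 had an unadjusted p under 0.05, DESeq2 called 5, and edgeR called 63 without Set 1 but 10 without Set 2.

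SNTG1, a syntrophin scaffold protein, had the largest rise among genes of at least 30 CPM with the same sign in all 4 samples. Its level was 41.1, 696, 524 and 282 CPM in members of cultured samples 1, 2 and 3 and transplanted sample 3, and 12.05, 229, 330 and 106 CPM in GAD-negative cells. The member value was higher in each sample although the ranges overlapped across samples, and the log2 change was 1.36 ± 0.18 (SE; edgeR adjusted p = 9.28e-12). DLGAP1, a postsynaptic scaffold protein, was at 13.7, 992, 1195 and 454 CPM in members against 0, 555, 386 and 252 CPM, a log2 change of 1.02 ± 0.15 (edgeR adjusted p = 8.14e-09). GABRA2 was at 95.8, 170, 131 and 119 CPM against 36.1, 115, 64.4 and 15.1 CPM (log2 0.88 ± 0.22). CALB2 was at 82.1, 112, 147 and 128 CPM against 40.2, 54.2, 72.4 and 90.7 CPM (log2 0.88 ± 0.24). For CALB2 and GABRA2 the lowest and highest samples of the 2 kinds overlapped. The same order in every pair was a condition for naming these genes and not a result. In members of cultured sample 1, 13.7 CPM stands for 1 UMI and 41.1 CPM for 3 UMIs. Of similar size were the rises of GNAO1, a G protein alpha subunit (1.09), RNF220 (0.97), LDB2 (0.94), OLFM3 (0.87), ATRNL1 (0.84) and NLGN1, the synaptic adhesion protein neuroligin (0.84).

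The largest fall was that of an autophagy gene. SQSTM1, the autophagy receptor p62, was at 246, 97.1, 180.1 and 66.1 CPM in members and at 301, 600.2, 740.2 and 106 CPM in GAD-negative cells, a log2 change of -1.95 ± 0.19 (edgeR adjusted p = 2.36e-18). The distance was widest in cultured samples 2 and 3 and narrow in cultured 1. The small p depends on the fit. Over the 20 genes named as largest rises and falls, the lowest adjusted p was 0.00192 in DESeq2. In edgeR without the block it was 0.9998. MDM2, the ubiquitin ligase that restrains p53, was at 54.8, 59.2, 49.1 and 48.5 CPM against 72.3, 141, 137 and 75.5 CPM, and its 2 ranges did not overlap (log2 -1.12 ± 0.24). B2M, the light chain of MHC class I, was at 370, 90.4, 32.7 and 48.5 CPM against 514, 163, 40.2 and 55.4 CPM (log2 -0.69 ± 0.20), with most of its level in Set 1. S100A10 (-1.22), NEK7 (-0.98), SNHG8 (-0.98), PPP6R2 (-0.94), CST3 (-0.79), DAPL1 (-0.71) and ELP4 (-0.62) fell too. Markers of other cells moved with these falls in the cultured samples: 8 pigment epithelium markers summed to 27.4, 43.5, 16.4 and 26.4 CPM in members against 68.3, 327, 48.3 and 0 CPM in GAD-negative cells. The 7 mural or fibroblast markers were at 13.7 to 17.9 CPM in members and 0 to 243 CPM in GAD-negative cells, highest in cultured sample 2, where the NRF2 and iron list was also lower in members (4610 against 12592 CPM). Their part in the result was not tested.

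**Figure D2:**
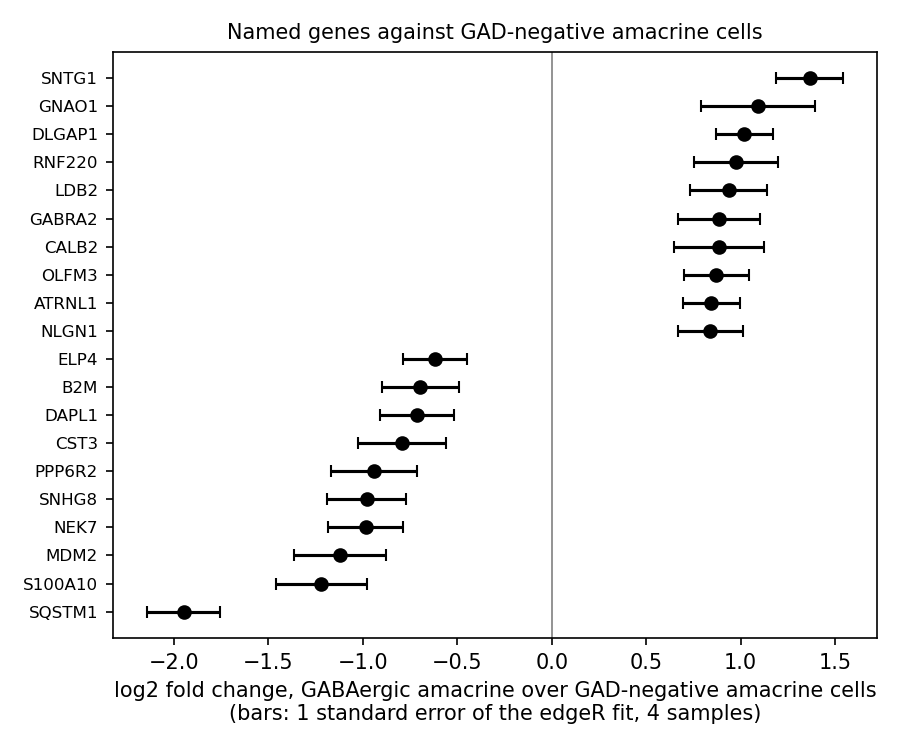
The 10 largest rises and 10 largest falls in members against GAD-negative amacrine cells, as log2 fold change with 1 standard error over 4 samples. The rises end at 1.36 for SNTG1, and SQSTM1 stands apart on the lower side at -1.95.

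By list, 2 of 5 tested GABA receptor genes rose (GABRA2 and GABBR2, a GABA-B subunit) and none fell, with a median log2 of 0.26 beside -0.02 for all genes tested. Of 24 adhesion and lamination genes, DSCAM, NLGN1 and DCC rose and NRXN3 fell. In the amacrine identity list 1 of 11 rose (MEIS2, 0.46) and 1 fell (NEUROD4, a factor of newborn neurons, -1.15), while PAX6 had a log2 of 0.03 ± 0.12. No tested gene of the lists for vesicle release (14 genes), voltage-gated channels (15), glutamate receptors (7), cytoskeleton (20) or heat shock (8) passed. Values above 0 were found for 13 of the 14 vesicle genes and 18 of the 20 cytoskeleton genes, beside 2062 of all 4511 genes tested. No marker of rods, cones, ganglion cells, astrocytes or pigment epithelium reached the count needed for the test.

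Against horizontal cells, the other GAD-expressing class, the members differed in far more genes. In the same 4 samples 804 of 8924 genes passed, 438 higher (4.91%) and 366 lower (4.1%) in members, or 9.01% of genes tested. Higher genes included GABRG1, GABRA2, LHX9 and TBX3, and lower ones the horizontal cell genes PROX1 and ONECUT3. Without the block 13 passed, DESeq2 called 383, and edgeR called 849 without Set 1 but 341 without Set 2. Median UMIs in horizontal cells were 2080, 4727, 2730 and 6748.

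GABRG1, a gamma subunit of the GABA-A receptor, was at 41.1, 68.1, 49.1 and 70.5 CPM in members of cultured samples 1, 2 and 3 and transplanted sample 3, and at 0, 1.37, 2.12 and 0 CPM in horizontal cells, with no overlap (log2 5.90 ± 0.48, edgeR adjusted p = 3.75e-32). GABRA2 was also apart in every sample, at 95.8 to 170 CPM against 3.16 to 15.1 CPM (log2 3.85 ± 0.29). RALYL, an RNA-binding protein, was at 192, 1605, 3111 and 1713 CPM against 14.8, 227, 110.5 and 89.2 CPM (log2 3.82 ± 0.18, edgeR adjusted p = 1.2e-80). In Set 1 both classes had less of it than in Sets 2 and 3. Among transcription factors, TBX3 rose by 3.77, LHX9 by 3.38, BHLHE22 by 2.94 and MEIS2 by 3.24 on the log2 scale, and PAX6 by 0.52 ± 0.16. The potassium channel gene KCNC2 (3.51), CHST9 (4.21), MIR4500HG (4.20), OLFM3 (3.87) and LDB2 (3.85) complete the largest rises.

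Among lower genes were 3 of the 4 tested horizontal cell markers. PROX1 was at 13.7, 13.4, 0 and 17.6 CPM in members against 273, 622, 871 and 700.1 CPM, with no overlap (log2 -5.48 ± 0.28, edgeR adjusted p = 2.36e-79). ONECUT3, whose relatives ONECUT1 and ONECUT2 the rule bars, was at 0 to 13.2 CPM against 82.1 to 338 CPM. TNR, an extracellular matrix glycoprotein, was at 0, 4.47, 0 and 4.40 CPM against 75.4, 440, 861 and 598 CPM (log2 -6.79 ± 0.36), and DRD2, the dopamine D2 receptor, at 0 to 4.40 CPM against 35.0 to 206 CPM. MEGF10 (log2 -2.47 ± 0.34), an adhesion receptor of horizontal and starburst cells, and STMN2 (-0.70 ± 0.14), a microtubule regulator of growing axons, fell as well. The remaining large falls were AC016044.1, DOCK10, SNCG, CACNG3, C11orf87 and CADPS2, between -5.95 and -3.83.

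**Figure D3:**
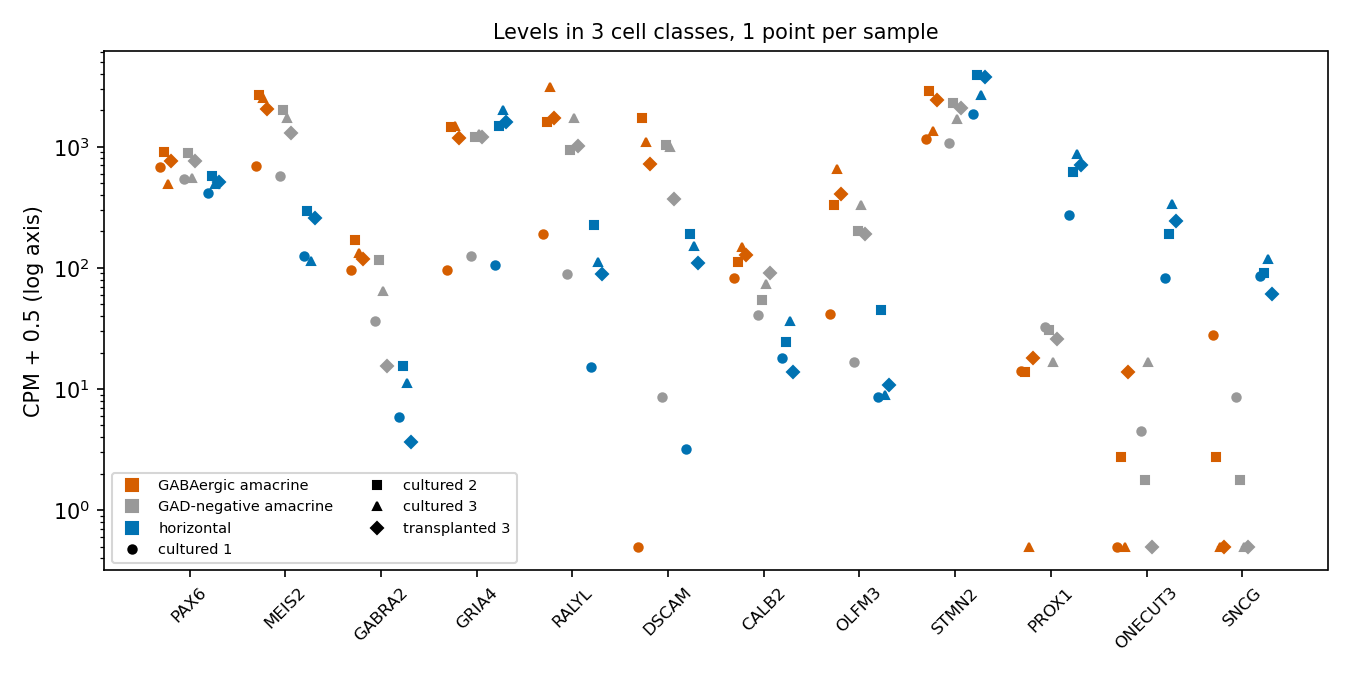
CPM in members, GAD-negative amacrine and horizontal cells of 4 samples, with 1 point per sample and a log axis after adding 0.5. MEIS2 and OLFM3 are higher in both amacrine classes than in horizontal cells of the same sample, and PROX1 is the reverse, while cultured sample 1 is lowest for DSCAM and GRIA4 in all 3 classes.

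By list, 4 of 8 GABA receptor genes rose and none fell (GABRA2, GABRA3, GABRG1 and GABBR2), with a median log2 of 0.91 beside -0.04 for all genes. Of all genes tested 4.91% rose and 4.1% fell. Of 11 glutamate receptor genes 6 rose, among them GRIA1 (1.57 ± 0.19) and GRM8 (2.70 ± 0.22), and GRIA3 fell. Adhesion and lamination genes went both ways, 14 rising and 7 falling of 28, with DSCAM at 0, 1728, 1097 and 722 CPM in members against 2.69, 190, 151 and 110 CPM (2.96 ± 0.19), higher in 3 of 4 samples. GLRA2, a glycine receptor subunit, rose by 1.76 ± 0.23 on the log2 scale and CALB2 by 2.44 ± 0.27. Most genes of the stress lists had log2 values below 0, though few passed. Of all 8924 genes tested 4907 were below 0, and 4.1% were called lower. Of 15 immediate early genes 13 had log2 values below 0, JUN, ATF3 and IER2 fell and BTG1 and SGK1 rose. All 10 heat shock genes were below 0 and 2 of them fell (DNAJB1 and HSPB1), and 2 of 9 genes of the unfolded protein list fell. In the p53 list 10 of 11 genes were below 0, 4 fell and BCL2 rose, and in the NRF2 and iron list 10 of 11 were below 0, 4 fell and SLC7A11 rose.

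**Figure D4:**
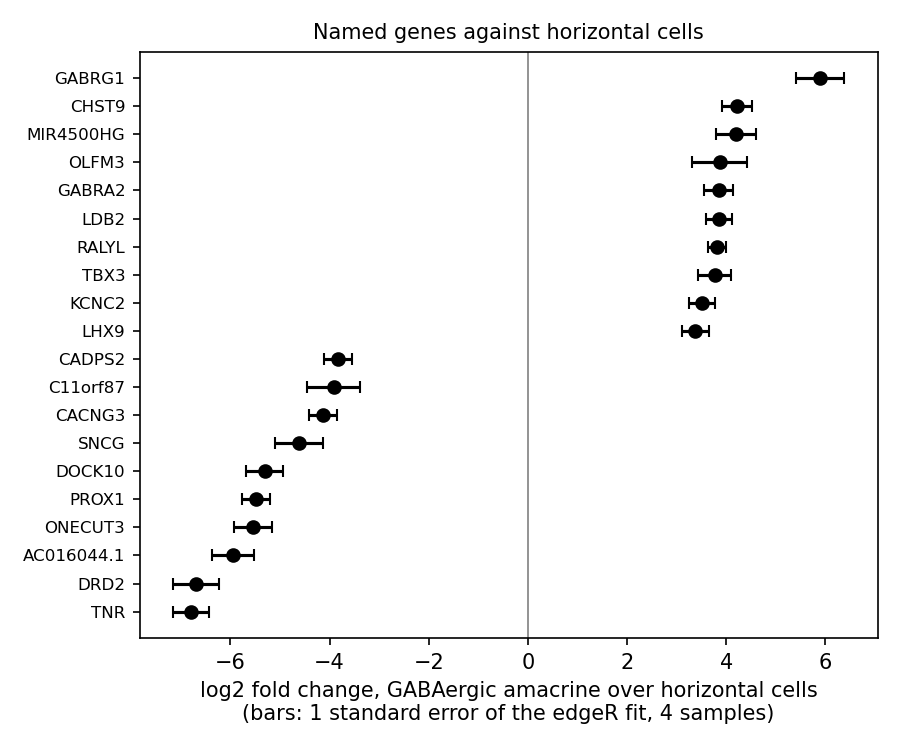
The 10 largest rises and 10 largest falls in members against horizontal cells, as log2 fold change with 1 standard error over 4 samples. GABRG1 at 5.90 lies above the other rises, and TNR, DRD2 and AC016044.1 are the lowest.

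Transplanted and cultured members could be set side by side with at least 5 cells on each side only in Set 3, where 34 transplanted and 24 cultured members were found. With 1 sample per group there is no test, and the intervals below cover counting error only. Of 3696 genes kept, 803 differed by at least 2-fold (21.7%), 550 higher (14.9%) and 253 lower (6.85%) in the transplanted sample, on a log2 scale with 2 counts added. Mitochondrially encoded genes, chaperones and some immediate early genes were higher in transplanted members. The adhesion genes MDGA2 and PCDH15, the cholesterol enzyme HMGCS1 and the chaperone CALR were lower. The samples also differed as wholes: over all kept cells the median share of clone-named genes was 4.36% in the cultured and 2.63% in the transplanted sample, and members' median mitochondrial share was 1.19% and 2.59%. Müller glia markers moved the same way, with a sum of 196 CPM (102 to 343) in cultured and 546 CPM (454 to 651) in transplanted members and 597 and 1675 CPM in other kept cells, and both markers kept, VIM and DKK3, were at least 2-fold higher in transplanted members. Other kept cells of the same samples are given beside the main values, and the part of these sample differences in the members' values was not tested.

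Among mitochondrial genes, 6 of 13 were at least 2-fold higher and MT-ATP8 was at least 2-fold lower. MT-CO1, a subunit of cytochrome oxidase, was at 1097 CPM (95% Poisson interval 850.3 to 1393) in cultured and 3048 CPM (2825 to 3284) in transplanted members, and at 1163 and 2524 CPM in the other cells. MT-ATP6, a subunit of ATP synthase, was at 917 and 4621 CPM in members and at 1333 and 4979 CPM in the other cells. The other cells of Set 3 thus moved as the members did. Summed over the 13 genes, members were at 23327, 32758 and 11872 CPM in cultured samples 1, 2 and 3 and at 52352, 39242 and 26491 CPM in transplanted samples 1, 2 and 3, so the transplanted value was higher in all 3 Sets although the groups overlapped. In Set 2 this rests on 1 cell: the third member of transplanted sample 2 gave 326 of its 632 mitochondrial UMIs, and without it, an alternative chosen after seeing the data, the sum was 21906 CPM, below the cultured value. In Set 1 the transplanted value rests on 2 cells, at 4.90% and 5.27% mitochondrial UMIs. The second, VIM-rich cell holds 15363 of the 16771 UMIs. In other kept cells the sum of the 13 genes was higher in Sets 1 and 3 and lower in Set 2, at 27081 and 22520 CPM.

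Of 8 heat shock genes kept in Set 3, 5 were at least 2-fold higher in transplanted members and none lower, with a median log2 of 1.42 beside 0.02 for all genes. HSP90AB1, a cytosolic chaperone, was at 262 CPM (150 to 425) in cultured and 899 CPM (779 to 1031) in transplanted members, and at 466 and 1124 CPM in the other cells. The sum of the 13 heat shock genes did not keep this direction in other Sets: it was 1654 and 3418 CPM in Set 3, 4086 and 2422 CPM in Set 2 and 5312 and 4293 CPM in Set 1, cultured first. Other kept cells went from 2254 to 4227 CPM in Set 3. Immediate early genes followed the same pattern in Set 3, with FOS at 65.5 and 225 CPM, JUND at 115 and 255 CPM and BTG1 at 131 and 480.1 CPM. Other kept cells had 321 and 479 CPM of FOS, 343 and 607 CPM of JUND and 151 and 383 CPM of BTG1. Over the 28 immediate early genes the transplanted sum in Set 1 was 9958 CPM against 6243 CPM cultured. For both lists the transplanted value of Set 1 describes mostly the VIM-rich cell, which holds 15363 of its 16771 UMIs. Other kept cells had the higher transplanted sum of immediate early genes in all 3 Sets. In Set 2 the sum of these genes in members came to 1775 CPM for cultured members and to 1490 CPM for transplanted ones, with overlapping intervals.

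The sum of cholesterol synthesis genes was lower in transplanted members of every Set. The 23 genes summed to 1013, 1126 and 1261 CPM in cultured samples 1, 2 and 3 and to 656, 621 and 485 CPM in transplanted samples 1, 2 and 3, so the groups did not overlap. In Set 3 the intervals were 995 to 1576 CPM and 398 to 584 CPM. The transplanted values of Sets 1 and 2 rest on 11 and 10 UMIs, and their intervals overlap those of the cultured samples. That of Set 1, like its MHC class I value below, describes mostly the VIM-rich cell. HMGCS1, the enzyme that makes HMG-CoA, was at 147 CPM (67.4 to 280) and 30.8 CPM (12.4 to 63.5) in Set 3, from 9 and 7 UMIs, beside 81.4 and 29.3 CPM in other cells. The other kept cells also had lower sums in each Set, at 946, 917 and 744 CPM cultured and 675, 600 and 623 CPM transplanted. The 13 genes of MHC class I presentation were lower too, at 862, 357 and 295 CPM in cultured and 477, 248 and 141 CPM in transplanted members. The groups overlapped, 8, 4 and 32 UMIs stood behind the transplanted values, and the counting intervals overlapped within every Set. Other kept cells of the transplanted samples had the higher sums (1624, 1072 and 730 CPM against 1358, 953 and 435 CPM). GAD-negative amacrine cells had 1225, 525 and 225 CPM cultured and 550, 623 and 191 CPM transplanted, so they too were lower in Sets 1 and 3.

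Single genes with the largest differences in Set 3 were named by size among those of at least 100 CPM in the higher sample. PDGFRA, a growth factor receptor, had no UMI in 24 cultured members (0 to 60.4 CPM) and 53 UMIs in 14 of 34 transplanted members (175 to 305 CPM). That is 4.75 times a floor of 3 counts, a ratio that leaves out the counting error of the transplanted value. GAD-negative cells of the same samples were at 185 and 201 CPM and other kept cells at 24.0 and 8.03 CPM. PDE11A had 52 UMIs in 4 transplanted members, 28 of them in 1 cell, and AC012499.1 had 30 UMIs in 3 members. Of the other leading rises, SRSF10, VDAC3, POLR2F, IGFBP2, PSMA4, RNPC3, TSTD2 and NGRN had no UMI in the 61069 UMIs of the cultured members and 25 to 49 in the transplanted ones. Their transplanted values were 2.24 to 4.39 times that floor, with lower interval ends from 71.3 CPM beside the cultured upper end of 60.4 CPM. These genes were picked by size among 3696 on the same counts, so intervals that lie apart follow in part from the choice. Values in other kept cells are not given for them. MDGA2, a synaptic adhesion protein, was at 1408 CPM (1126 to 1739) in cultured and 282 CPM (217 to 360) in transplanted members, and at 214 and 63.9 CPM in other cells. PCDH15, a protocadherin, was at 491 and 79.3 CPM in members and 59.0 and 15.7 CPM in other cells. GALNT17, ZFPM2-AS1, FHIT, LRP1, AL627171.2, NEAT1, LINC00486, GRIK1, ZFPM2 and RBM23 were the other largest falls, between -2.44 and -2.15 on the log2 scale.

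**Figure D5:**
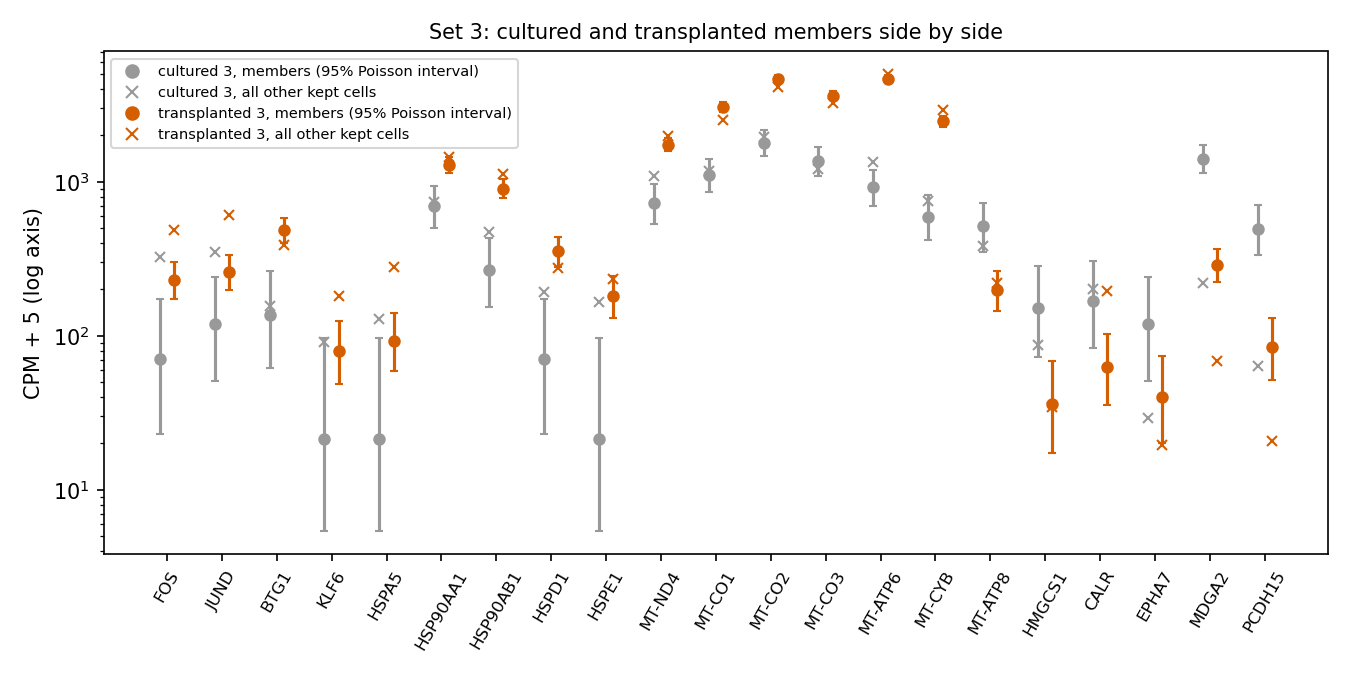
CPM of 21 genes in cultured and transplanted members of Set 3, on a log axis after adding 5, with exact 95% Poisson intervals, and crosses for all other kept cells of the same sample. Mitochondrial genes other than MT-ATP8 are higher in the transplanted sample in members and in the other cells alike, and MDGA2 and PCDH15 are lower in both.

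Genes of amacrine identity and inhibitory transmission stayed within 2-fold between the samples of Set 3. PAX6 was at 491 CPM in cultured and 758 CPM in transplanted members and MEIS2 at 2538 and 2039 CPM. GRIA4 was at 1474 and 1180 CPM, GABRA2 at 131 and 119 CPM and CALB2 at 147 and 128 CPM. None of 7 amacrine identity, 4 GABA synthesis and transport or 7 GABA receptor genes kept reached 2-fold, against 21.7% of all genes. Of the 7 identity genes 6 had log2 values below 0, with a median of -0.68. MEGF10 was higher (16.4 and 154 CPM), with 35 UMIs in 6 of the 34 transplanted members, 3 of which are among the CHAT-positive cells named above. LHX9 was at 115 and 269 CPM.

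When every Set with at least 1 member was entered, a fit added after the member counts were known, 0 of 1208 genes passed (0% of genes tested) in edgeR's quasi-likelihood test with the Set as a block, and 50 had an unadjusted p under 0.05. DESeq2 with the Set as a block also called 0. The fit rests on 2 and 3 cells in transplanted samples 1 and 2, and 1 of the 2 cells of transplanted sample 1 went against the label. Without Set 1, 0 of 3239 genes passed. With the GAD-negative cells added to the members, 2 of 5259 genes passed, SQSTM1 (lower, log2 -2.55) and PTF1A (higher, log2 4.72).

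The difference between the members' response to transplantation and that of other cells was fitted as an interaction, also over every Set with at least 1 member. Against all other kept cells, 15 of 16232 genes passed in edgeR's quasi-likelihood test (0.0924%), all higher in transplanted members relative to the others, and without Set 3 none passed (445 had an unadjusted p under 0.05). Against GAD-negative amacrine cells, 6 of 2775 passed (0.216%), and without Set 1 none passed (156 had an unadjusted p under 0.05). HES1 and SFRP2 were among these 6, with 34 and 41 of their 35 and 44 transplanted UMIs in the single VIM-rich cell of transplanted sample 1.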

How the data were processed

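The deposited values are UMI counts per gene and cell barcode in 6 matrices of 36601 genes, made by the authors with Cell Ranger 6.0.2 (Set 1) and 7.1.0 (Sets 2 and 3), per the file headers, on GRCh38. Whether introns were counted is not given in the sources used here. Total UMIs were between 6850189 and 108222149 per sample. Counts were summed per sample over each cell class and tested with edgeR 4.0.16 (R 4.3.3; filterByExpr, TMM factors, robust quasi-likelihood fit, Benjamini-Hochberg threshold 0.05), with the sample or Set as a block. Members, gene lists and tests were chosen with earlier results of these data known. The rule genes were left out of counts of calls.

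The labels state that both samples of a Set came from 1 batch. Deviations of members' log levels from the group means correlated within Sets 1, 2 and 3 at 0.774, 0.343 and 0.611 over 1843 genes, and between samples of different Sets at -0.698 to 0.476. Cultured sample 2 with transplanted 3 (0.476) and cultured 3 with transplanted 2 (0.418) were above the Set 2 pair. These values thus do not single out that pair. All negative values were between Set 1 and the other Sets, which differ in counting software. A Set entered the planned transplant test only with at least 5 members in both samples. That left Set 3 and no test, so the fits over every Set with at least 1 member were added after seeing the data.

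Named genes are the 10 largest rises and 10 largest falls past the threshold with at least 30 mean CPM in the higher class and the same sign in every sample, plus list members. In Set 3, where a rule of size was added after seeing the data, they are the 12 largest in each direction with at least 100 CPM. Results that need withheld items are not reported here. Gene positions come from GENCODE v29, in which 34616 of 36601 gene IDs were found. The automatic Scrublet threshold of scanpy 1.11.5 marked 0 to 2 cells per sample and was not used, and removing the highest scores was an alternative that drops 9 members. Other alternatives were DESeq2 1.42.0, RLE factors, no filter, no block, stricter cells, thinning, at least 2 GAD UMIs and leaving out replicates. The test scripts were tested on simulated data.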

Additional observations from a re-analysis of the deposited data

Results flagged for a closer look

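For 12 genes the difference between transplanted and cultured samples was not the same in members and in another class, by the interaction term of edgeR's quasi-likelihood test over every Set with at least 1 member. Most rest on few UMIs, and values are log2 differences of the responses.

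Against all other kept cells the 6 largest were as follows. BST2 had 11.7, from 0 cultured and 6 transplanted member UMIs, 5 of them in transplanted sample 1. C1QL2 had 5.48, from 4 and 6 UMIs. AC002069.2 had 4.98, from 2 and 11 UMIs. AC073320.1 had 4.59, from 1 and 9 UMIs. AP003464.1 had 3.97, from 8 and 20 UMIs, all 20 in transplanted sample 3. SLC35F4 had 3.65, from 3 and 14 UMIs, all 14 in transplanted sample 3.

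Against GAD-negative amacrine cells there were 6. HES1, a Notch target, had 3.55, from 72 cultured and 35 transplanted UMIs. SFRP2, a secreted Wnt antagonist, had 2.99, from 240 and 44 UMIs. PTPRT had 2.55, from 468 and 95 UMIs, with none in Set 1. ADARB2 had 1.93, from 761 and 124 UMIs, with none in Set 1. HIST1H4C, a histone gene, had 1.75, from 170 and 90 UMIs. RELN had 1.74, from 557 and 226 UMIs. Of the 12, 11 lost their call when at least 1 Set was left out. HES1 had too few counts to be tested without Set 1, where 34 of its 35 transplanted UMIs lie in 1 cell.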

How the results depend on the processing

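The comparison with GAD-negative cells (56 calls) gave 0 calls with no replicate block, 5 with DESeq2, 17 with at least 2 GAD UMIs and 10 of 720 after thinning to 1000 UMIs, and between 10 and 64 when a Set or sample was left out. The comparison with horizontal cells (804 calls) gave 13, 383, 325 and 244 under the same alternatives and between 341 and 849 when a Set or sample was left out. The cause was not tested, except that thinning and fewer members leave fewer genes to test. Set 3 side by side gave 3904 of 16581 genes past 2-fold with no filter on low counts and 612 of 1490 with at least 2 GAD UMIs, in place of 803 of 3696.

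The fit over every Set gave 2 calls with RLE factors (RALYL, MT-CYB), 2 with the GAD-negative cells added, and 0 to 1 (PCP4) when a Set was left out. The response against all other cells (15 calls) gave 35 with RLE factors, 7 with no filter and 0 to 11 when a Set was left out. The response against GAD-negative cells (6 calls) gave 0 with no filter and 0 to 10 when a Set was left out. Leaving out Sets moved AP003464.1 between -9.72 and 14.4, SLC35F4 between -8.09 and 12.5, and SFRP2 between -0.45 and 4.19. The negative values came without Set 3 for the first 2 and without Set 1 for SFRP2.

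The difference of the GAD2 share lay between -21.2 and 2.50 percentage points when a Set was left out, and that of the TFAP2A share between -21.6 and 14.0, and at 16.3 with stricter cells. The difference of the member share stayed negative, between -0.964 and -0.318 percentage points when a Set was left out. It was much smaller at -0.0532 after thinning to 1000 UMIs and -0.0935 with at least 2 GAD UMIs, where Set 3 turned round. No block, DESeq2 and leaving out replicates were not run for Set 3 alone, which has 1 sample per group, and a limit of 20 members leaves the same samples. The 2 and 3 members of transplanted samples 1 and 2 limit every statement on Sets 1 and 2.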
